A study of Bos taurus with 28 samples.

Results

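Of the proteins of the mitochondrial respiratory chain that the mitochondrial genome itself encodes, 6 belong to complexes III, IV and V. These are cytochrome b of complex III (CYTB), subunits 1, 2 and 3 of cytochrome c oxidase or complex IV (COX1, COX2 and COX3), and subunits 6 and 8 of ATP synthase or complex V (ATP6 and ATP8). The members were defined by complex and by their place in the mitochondrial genome, and were 6 of 37 features of the mitochondrial genome and of 26740 transcripts in the count files. All 6 passed the filter on low counts, as did 15804 transcripts in all. Their mRNA was measured by RNA sequencing of testicular parenchyma from 28 Holstein bull calves, with 1 library from each bull. From 2 wk of age until 8 wk, high-diet calves received a larger daily volume of milk replacer than low-diet calves. From 8 wk on, the high diet held crude protein at 20% and total digestible nutrients at 71.6%, and the low diet held 12% and 64.4%, so the bulls castrated at 8 wk differed in milk volume and not yet in these solid diets. Testes were taken by castration once per bull, at an age of 8 wk (2 high-diet bulls), 16 wk (3 bulls), 24 wk (4 bulls) or 32 wk (3 bulls), with 4 low-diet bulls at every age. Of the high-diet bulls titled 24 wk, bulls 45, 47 and 48 carry age labels of 16, 25 and 26 wk. The titles were used, which give the group sizes that the authors report. Calls of members that change with bull 45 at 16 wk are given as such.

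Complexes III and IV pass electrons from ubiquinol through cytochrome c to oxygen and pump protons across the inner mitochondrial membrane, and complex V uses the return of those protons to make ATP. Each of these complexes also holds subunits encoded in the nucleus. The mitochondrial genome is transcribed as long precursors that are cut into single RNAs, largely at the tRNAs that lie between the coding genes, so that mRNAs from a shared precursor can still reach different levels. In the prepubertal testis, Sertoli cells, Leydig cells and germ cells divide and mature, and the makeup of the tissue changes with age. In bulk tissue, fewer cells rich in an mRNA and less of that mRNA per cell cannot be told apart.

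The members lie on the + strand of the mitochondrial chromosome (MT) in assembly UMD3.1, each as a single exon. COX1 (ENSBTAT00000060569), which holds the site where oxygen is reduced, spans positions 5687 to 7231. COX2 (ENSBTAT00000060549), which takes electrons from cytochrome c, spans 7374 to 8057, and COX3 (ENSBTAT00000060566), a core structural subunit, spans 8970 to 9750. ATP8 (ENSBTAT00000060553), a short subunit of the membrane part of ATP synthase, spans 8129 to 8329 and shares 40 bases with ATP6. ATP6 (ENSBTAT00000060539), which forms part of the proton path, spans 8290 to 8970 and shares 1 base with COX3. CYTB (ENSBTAT00000060567), which carries the hemes of complex III in the membrane, spans 14514 to 15653. A read that touches 2 features was not counted under the recorded counting command. Of the 275 start positions at which a 75-base read touches ATP8, 88 (32.0%) touch no other feature, against 75.0% for ATP6 and 81.0% to 90.7% for COX1, COX2, COX3 and CYTB. Nuclear copies of mitochondrial sequence can share reads with these genes, and their part in the counts was not tested.

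Library totals lay between 2466508 and 5378487 counts. The 6 members together took between 2.25% (low diet, 16 wk) and 9.31% (high diet, 24 wk) of them, and between 75.0% and 84.0% of the counts on mitochondrial mRNAs. Mitochondrial rRNA took a further 2.00% to 5.46%. The totals hold only reads assigned to a single transcript, and each lay below the mean number of mapped reads per library that the authors report. Shares and CPM here are thus relative to counted reads, and are higher than they would be relative to all mapped reads. Among the high-diet bulls at 24 wk, bull 46 stood apart, with 3.69% of its counts on the members against 7.18% to 9.31% in the other 3 bulls. The tissue could not be checked against the markers of its cell types, nor the nuclear subunits of these complexes described, because the transcript identifiers outside the mitochondrial genome were not paired with gene names.

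The 6 members reached very different levels by their counts. Per kb of annotated length, the median level over the 28 libraries was 14462 CPM (counts relative to the library total, scaled by TMM, edgeR's trimmed mean of M-values) for COX1 and 12789 for COX3. It was 5125 CPM per kb for COX2, 3510.3 for ATP6 and 2730.3 for CYTB. ATP8 was lowest, with a median of 209 CPM per kb. COX1 and COX3 were both above COX2 in all 28 libraries. As neighbours in this order, COX1 was above COX3 in 22 of 28 libraries, COX2 above ATP6 in 23 and ATP6 above CYTB in 25, so that none of these 3 pairs kept its order throughout. The ratio of COX1 to COX3 ran from 0.841 to 1.43. ATP8 was below CYTB in all 28 libraries per kb, and in 26 of 28 when counts were divided by the number of start positions that touch no other feature. On that second scale the median ratio of COX1 to ATP8 was 41.2, against 89.4 per kb. ATP8 and ATP6 overlap in the genome with no tRNA between them, and encode subunits of the same complex. Their counts differed by a median of 22.9 times per kb, with ATP6 the higher, and 12.1 times per start position. Whether they lie on 1 mRNA or on separate ones was not tested, so this gap is one of counts on the 2 features.

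**Figure D1:**
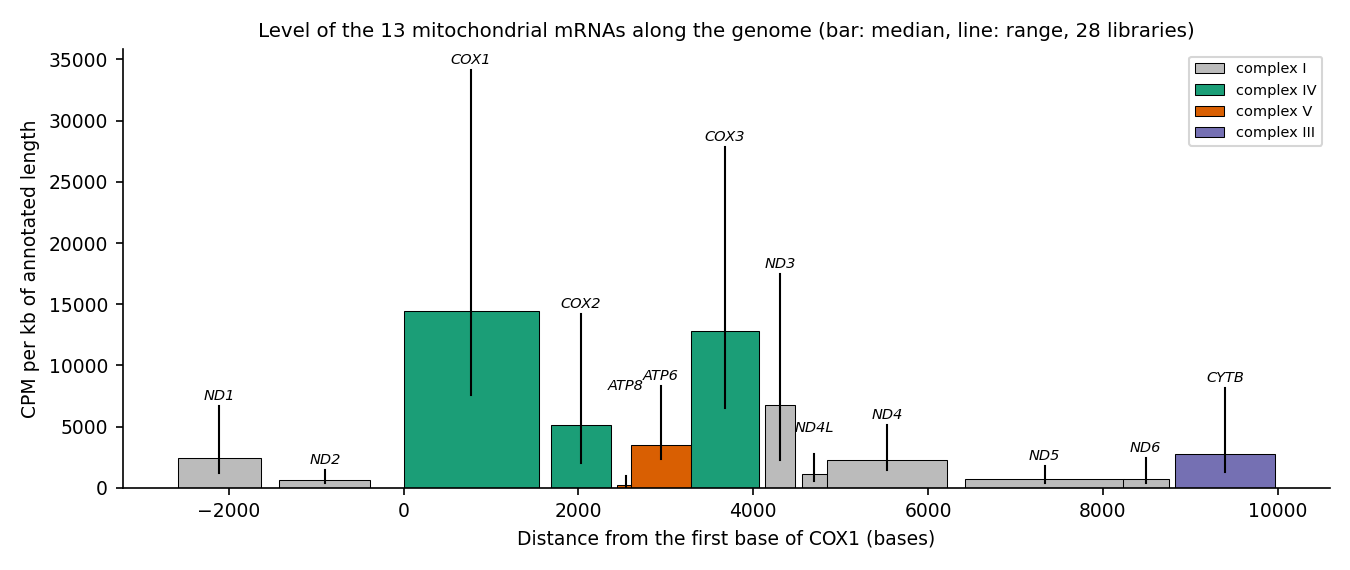
Level of the 13 mitochondrial coding genes (y axis, CPM per kb of annotated length) by distance from the first base of COX1 (x axis, bases). Bars are at the median of 28 libraries, lines run from the lowest to the highest library, and colours give the respiratory complex. The bars of COX1 (14462) and COX3 (12789) are the tallest, and that of ATP8 (209), between COX2 and ATP6, is the lowest.

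CYTB and COX3 were higher at 24 wk than at 16 wk, and no other change of a member with age or diet passed the test. On the mean of the diets, the CYTB level rose 1.86-fold and the COX3 level 1.67-fold between these ages. COX1, COX2 and ATP6 had log2 fold changes of the same sign at this step that did not pass. No difference between diets passed the test for any member at any age.

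The step from 16 to 24 wk is best seen in CYTB, the only mitochondrially encoded subunit of complex III. At 16 wk its level was 3869.6, 3056 and 2900.3 CPM in high-diet bulls 49, 50 and 52, and 1703, 2908, 4072 and 1470.1 CPM in low-diet bulls 9, 10, 11 and 12. At 24 wk it was 5964, 2721, 9309.6 and 7225 CPM in high-diet bulls 45, 46, 47 and 48, and 5342, 3169, 3896 and 5813 CPM in low-diet bulls 5, 6, 7 and 8. In the high diet 3 of 4 bulls at 24 wk were above every 16 wk bull of that diet, and in the low diet 2 of 4 were, so the ages overlapped in both diets. The levels at 8 wk, 2769 and 2362 CPM in the high diet and 2317, 2712, 3319.6 and 1633 CPM in the low diet, lay within the range of all bulls at 16 wk. At 32 wk they were 2624, 2719 and 3265 CPM in the high diet and 3314, 3883, 2615 and 6233 CPM in the low diet. These were below most of the 24 wk bulls in the high diet and overlapped them in the low diet. The group mean at 24 wk was 6305 ± 2759 CPM (SD, n = 4) in the high diet and 4555 ± 1233 CPM (SD, n = 4) in the low diet, against 3275 ± 520.4 CPM (SD, n = 3) and 2538 ± 1201 CPM (SD, n = 4) at 16 wk.

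COX3, like CYTB, had its highest group mean at 24 wk in both diets. In the low diet, however, the COX3 mean at 32 wk was nearly as high (log2 fold change from 24 to 32 wk -0.01, adjusted p = 0.990 by edgeR). At 16 wk its level was 11535, 9312 and 7806 CPM in the high diet and 5404, 8014, 11288 and 5197 CPM in the low diet. At 24 wk it was 16299.7, 8651, 21721 and 20252 CPM in the high diet and 13112, 8718, 11006 and 14575 CPM in the low diet. Bull 46, at 8651 CPM, again lay within the range of the 16 wk bulls, and the other 3 high-diet bulls lay above it. At 8 wk the level of COX3 was 9897 and 11157 CPM in the high diet and 11877, 8577, 8679 and 5097 CPM in the low diet. At 32 wk it was 10079, 8995 and 9847 CPM in the high diet and 10236, 10266, 7573 and 18867 CPM in the low diet, where bull 4 was highest.

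In the quasi-likelihood test of edgeR, adjusted by Benjamini-Hochberg over all 15804 transcripts, 2 of 6 members were called higher at 24 wk than at 16 wk (mean of the diets), against 4.4% of all transcripts called higher. CYTB had a log2 fold change of 0.89 ± 0.25 (SE, adjusted p = 0.0239) and COX3 of 0.74 ± 0.23 (adjusted p = 0.045). The values were 0.64 ± 0.24 for COX1 (adjusted p = 0.0903), 0.84 ± 0.33 for COX2 (adjusted p = 0.0984) and 0.51 ± 0.23 for ATP6 (adjusted p = 0.161). ATP8 was at 0.15 ± 0.53 (adjusted p = 0.894). The median of the 6 log2 fold changes was 0.69 and that of all transcripts 0.02. The members other than ATP8 varied together from bull to bull (COX3 with CYTB, Pearson's r of log2 CPM = 0.92). Their calls and fold changes are thus not separate observations, and the members were not tested as a set. Neither diet gave a call of a member on its own, where 0.0127% of all transcripts were called higher in the low diet and 4.36% in the high diet. CYTB was at 0.84 ± 0.34 in the low diet (adjusted p = 0.732) and 0.94 ± 0.37 in the high diet (adjusted p = 0.106), and COX3 at 0.66 ± 0.32 (adjusted p = 0.828) and 0.81 ± 0.35 (adjusted p = 0.139).

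Both calls lay close to the threshold and depended on single bulls. With bull 45 at the 16 wk of its age label, 0 of 6 members were called, and over all transcripts the number called went from 1521 to 84 and the share called higher from 4.4% to 0.0823%. CYTB was then at 0.77 (adjusted p = 0.152 by edgeR) and COX3 at 0.63 (adjusted p = 0.221). When each bull was left out in turn, CYTB kept its call in 22 of 28 fits and COX3 in 13 of 28, with log2 fold changes from 0.77 to 1.06 and from 0.66 to 0.87. CYTB lost it without high-diet bull 50, 52 or 47 or low-diet bull 9, 12 or 8, at adjusted p between 0.0507 and 0.0690 (edgeR). COX3 lost it without any of those 6 bulls, and without high-diet bull 53, 56, 45 or 48 or low-diet bull 14, 15, 5, 1 or 2, at adjusted p between 0.0508 and 0.107 (edgeR). Without bull 46, COX1 (0.76, adjusted p = 0.0348 by edgeR) and COX2 (1.00, adjusted p = 0.0373) were called as well.

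**Figure D2:**
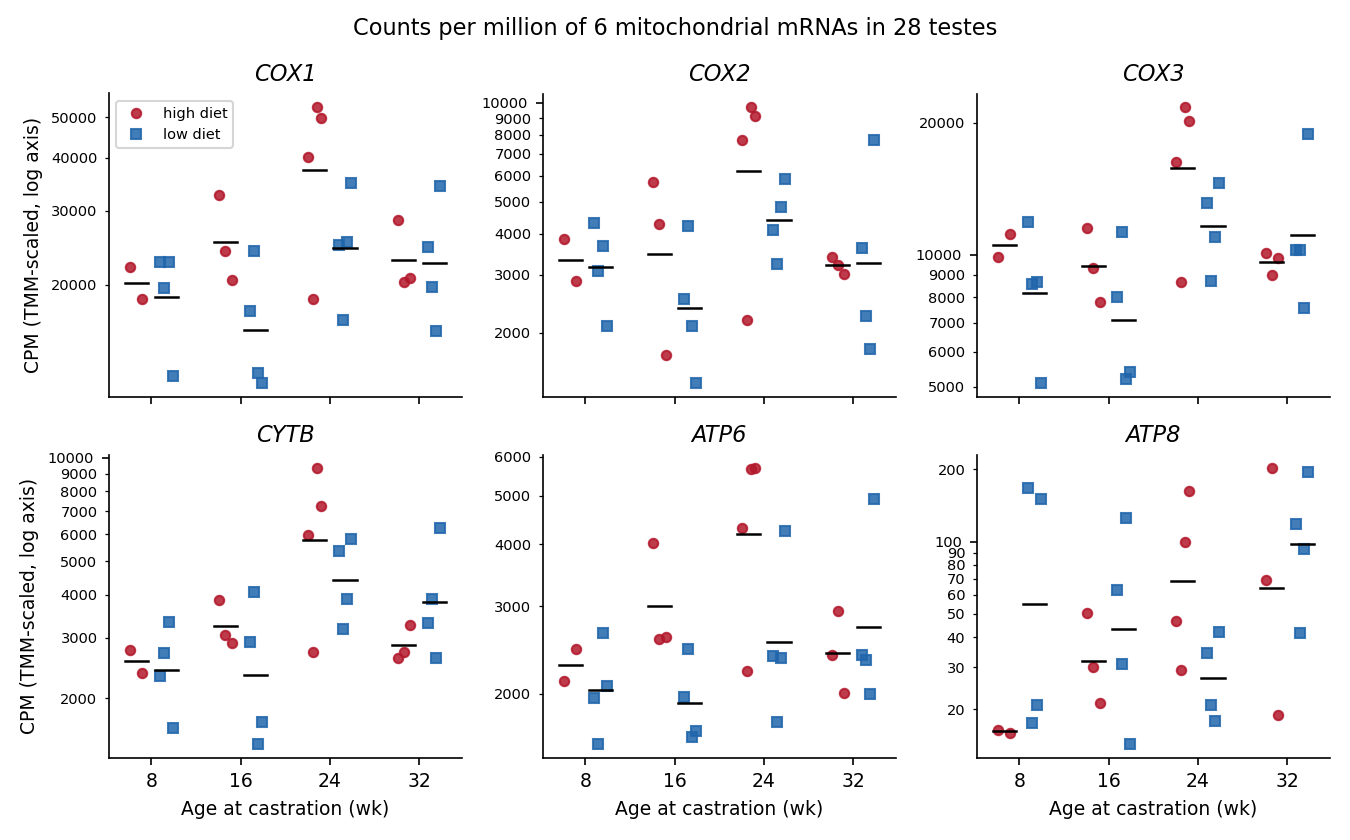
CPM of each member (y axis, log scale, TMM-scaled) in every bull by age at castration (x axis, wk), with circles for the high diet, squares for the low diet and a line at the geometric mean of each group. At 24 wk, 3 high-diet bulls lie at the top for COX1, COX2, COX3, CYTB and ATP6, and bull 46 lies below them, and ATP8 is spread from 14.4 to 201.8 CPM, with its highest level at 32 wk.

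COX1 and COX2, which hold the metal centres of complex IV, were largely high and low in the same bulls (Pearson's r of log2 CPM = 0.92). Their ratio per kb still ran from 1.96 to 5.32, and was highest in high-diet bull 52 (16 wk), where COX2 was low. At 24 wk COX1 was at 40160.2, 18511, 52730.3 and 49862 CPM in high-diet bulls 45, 46, 47 and 48 and at 24808, 16535, 25215 and 34899 CPM in low-diet bulls 5, 6, 7 and 8. At 16 wk it was at 32631, 24094 and 20576 CPM in the high diet and 11714, 17319.7, 24008 and 12357 CPM in the low diet. In each diet 3 of 4 bulls at 24 wk were above all 16 wk bulls of the same diet. COX1 was at 22079 and 18561 CPM in the high diet and 22638, 19637, 22609.7 and 12192 CPM in the low diet at 8 wk, and at 28493, 20280.0 and 20738 CPM and 24618, 19751, 15513 and 34244 CPM at 32 wk. For COX2 the lowest level was 1408 CPM in low-diet bull 9 (16 wk) and the highest 9703 CPM in high-diet bull 47 (24 wk).

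For the other steps of age, 0 of 6 members passed the edgeR test, and DESeq2 also called 0 of 6. The share of all transcripts that DESeq2 called at these steps is not given here, and the shares that follow are from edgeR. Between 8 and 16 wk, 0.728% of all transcripts were called, and the log2 fold changes of the members ran from -0.17 (COX3) to 0.23 (ATP8). An unadjusted p under 0.05 was reached by 1739 of 15804 transcripts and 0 of 6 members (edgeR). Between 24 and 32 wk, 12.3% of all transcripts were called. ATP8 was then at 1.08 ± 0.52 (adjusted p = 0.192, edgeR) and the other members between -0.70 (COX2) and -0.38 (ATP6). At this step 3 of 6 members and 3962 of 15804 transcripts had an unadjusted p under 0.05 (edgeR). CYTB, at -0.66 ± 0.25 (adjusted p = 0.0859, edgeR), was called lower at 32 wk without bull 46 (-0.79, adjusted p = 0.0235), and so were CYTB (-0.81, adjusted p = 0.0327) and COX2 (-0.99, adjusted p = 0.0315) without low-diet bull 4. Between 8 and 32 wk, 44.5% of all transcripts were called and again 0 of 6 members. An unadjusted p under 0.05 (edgeR) was reached by 8195 of 15804 transcripts and by 1 of 6 members. That member was ATP8, at 1.46 ± 0.61 (adjusted p = 0.0552, edgeR). The other members lay between 0.08 (COX2) and 0.42 (CYTB). ATP8 passed without high-diet bull 43 or low-diet bull 13, 16, 12, 9 or 2, at adjusted p from 0.0253 to 0.0481 (edgeR).

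The effect of diet was tested at each age, and DESeq2 called 0 of 6 members in every comparison of diets, as edgeR did. Of all transcripts, DESeq2 called 94 of 16990 at 16 wk and 121 of 13768 at 24 wk. Its share in the other comparisons of diets is not given here. At 8 wk, when the diets differed in milk volume, edgeR called 0% of all transcripts and 0 of 6 members, with 868 transcripts and 1 member at an unadjusted p under 0.05. At 16 wk 0.316% of all transcripts and 0 of 6 members were called by edgeR, with 1217 transcripts and 0 members at an unadjusted p under 0.05. The log2 fold change of high over low diet was then 0.66 ± 0.35 for COX1, 0.61 ± 0.47 for COX2, 0.35 ± 0.34 for COX3, 0.37 ± 0.36 for CYTB, 0.66 ± 0.33 for ATP6 and -0.78 ± 0.78 for ATP8 (SE), with adjusted p between 0.664 and 0.925. At 24 wk 0.183% of all transcripts and 0 of 6 members were called by edgeR. The values were 0.67 ± 0.33 for COX1, 0.67 ± 0.44 for COX2 and 0.50 ± 0.32 for COX3. They were 0.47 ± 0.34 for CYTB, 0.73 ± 0.31 for ATP6 and 1.54 ± 0.73 for ATP8. An unadjusted p under 0.05 (edgeR) was reached by 2 of 6 members (ATP6 and ATP8) and by 1440 of 15804 transcripts. Adjusted p of the members lay between 0.464 and 0.725. At 32 wk 0% of all transcripts and 0 of 6 members were called, with 564 transcripts and 0 members at an unadjusted p under 0.05, and the values ran from -0.48 (CYTB) to -0.02 (COX1). Averaged over ages, 0.0696% of all transcripts were called and 0 of 6 members, with values from -0.47 (ATP8) to 0.34 (COX1). An unadjusted p under 0.05 was reached by 1414 transcripts and 0 members (edgeR).

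At 24 wk, 3 of 4 high-diet bulls were above every low-diet bull for each of the 6 members, and bull 46 was not. The ranges of the diets thus overlapped for every member. The share of all transcripts with this pattern was not counted. The members other than ATP8 varied together from bull to bull, so they are not separate observations. Without bull 46 the log2 fold changes of high over low diet were 0.91 for COX1 (adjusted p = 0.317 by edgeR), 0.97 for COX2 (adjusted p = 0.439), 0.71 for COX3 (adjusted p = 0.449), 0.72 for CYTB (adjusted p = 0.463), 0.96 for ATP6 (adjusted p = 0.255) and 1.83 for ATP8 (adjusted p = 0.418). ATP6, which forms part of the proton path of ATP synthase, was the member with the lowest unadjusted p at this age (0.0255, edgeR). Its levels at 24 wk were 4305, 2226, 5665 and 5679 CPM in high-diet bulls 45, 46, 47 and 48 and 2386, 1757, 2358 and 4261 CPM in low-diet bulls 5, 6, 7 and 8. At 16 wk they were 4026, 2583 and 2607 CPM in the high diet and 1683, 1972, 2461 and 1638 CPM in the low diet, with no overlap between diets. The share of all transcripts without overlap at that age was not counted either. At 8 wk ATP6 was at 2119 and 2466 CPM and 1960.0, 1585, 2653 and 2071 CPM, and at 32 wk at 2395, 2938 and 2006 CPM and 2399, 2335, 2003 and 4927 CPM, and the diets overlapped at both ages. The edgeR test of whether the effect of diet differed between ages called 0% of all transcripts and 0 of 6 members, with 922 transcripts and 1 member at an unadjusted level of 0.05. That member was ATP8 (edgeR, unadjusted p = 0.0221, adjusted p = 0.837).

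**Figure D3:**
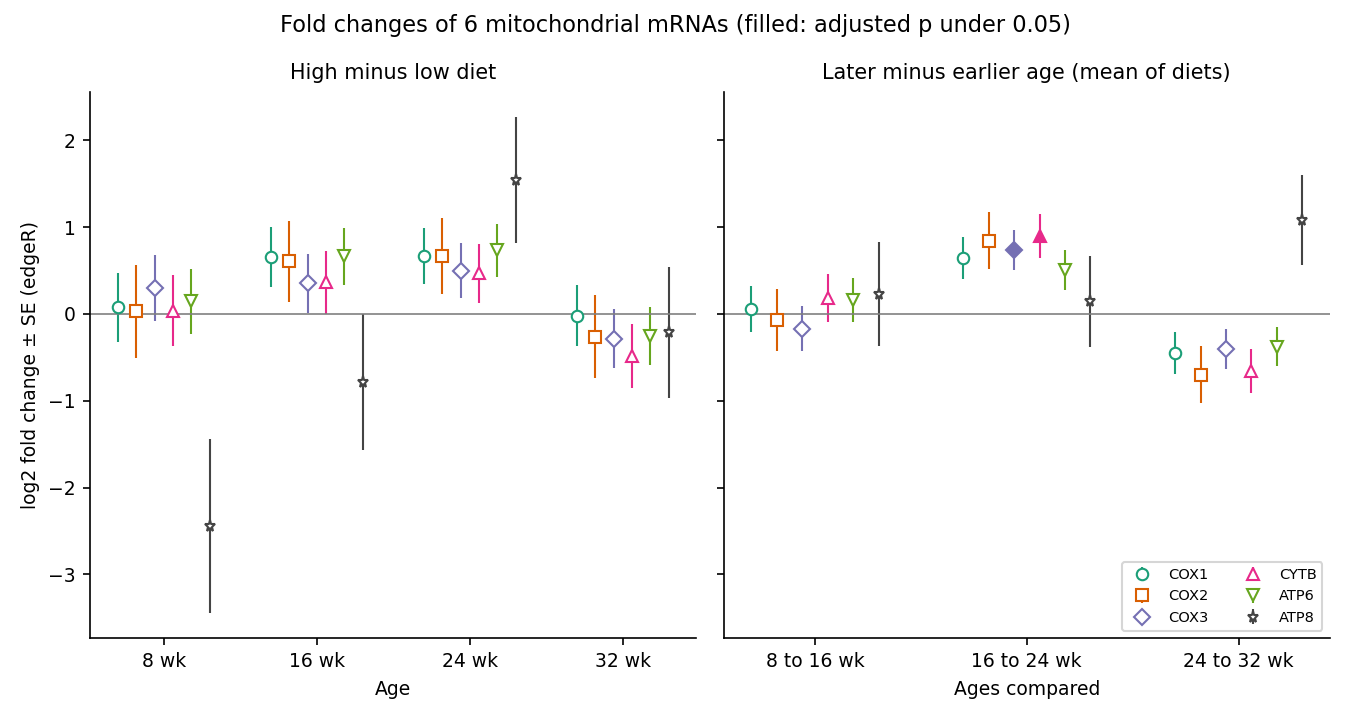
log2 fold changes (y axis, edgeR, bars are ± SE) of the 6 members for high over low diet at each age (left) and for the later over the earlier age on the mean of the diets (right). Filled symbols have an adjusted p under 0.05, which are COX3 (0.74) and CYTB (0.89) between 16 and 24 wk, and the bars of ATP8 are the longest in every comparison.

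ATP8 differed from the other members in its spread. Its counts ran from 45 to 784 per library and its level from 14.4 to 201.8 CPM, a 14.1-fold range, against 3.58-fold for ATP6 and 6.89-fold for COX2. Within groups, the SD of its log2 level was 1.197, against 0.45 to 0.70 for the other members, while counting alone gives an SD of 0.125 at these counts. Its biological coefficient of variation in the edgeR fit was 0.662, and its dispersion was above that of 95.6% of all transcripts tested. Mitochondrial rRNA2, which is no member, had a similar SD within groups (1.14).

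Levels of ATP8 above 100 CPM were found in both diets and, at each age, in some bulls and not in others. In low-diet bulls at 8 wk ATP8 was at 167, 17.5, 20.9 and 150.5 CPM (bulls 13, 14, 15 and 16), and in high-diet bulls 53 and 56 at 16.4 and 16.0 CPM. Thus 2 of the low-diet bulls were far above the other 2, which were near the high-diet bulls, although the ranges of the diets did not overlap. How many of all transcripts had no overlap at 8 wk was not counted. At 16 wk ATP8 was at 50.2, 30.2 and 21.2 CPM in the high diet and 14.4, 63.1, 31.0 and 126 CPM in the low diet, and at 24 wk at 46.6, 29.3, 100.1 and 163 CPM and 34.2, 20.9, 18.0 and 42.2 CPM. At 32 wk it was at 69.2, 202 and 19.0 CPM in the high diet and 119, 41.8, 93.4 and 195 CPM in the low diet. High-diet bulls 42 and 43, of the same age, lay near opposite ends of the whole range. For diet at 8 wk the log2 fold change was -2.44 ± 1.00 (unadjusted p = 0.0216, adjusted p = 0.814, edgeR), with 2 high-diet bulls.

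The levels of the other 5 members varied together from bull to bull. Over the 28 libraries, which differ in age and diet and were scaled together, Pearson's r of log2 CPM with COX1 was 0.92 for COX2, 0.94 for COX3, 0.88 for ATP6, 0.90 for CYTB and 0.22 for ATP8. Leaving out the other members, the transcript most like COX1 was ND1 (r = 0.928), that most like COX2 and ATP6 was ND4 (r = 0.857 and 0.937), and that most like COX3 and CYTB was ND3 (r = 0.911 and 0.943). These ND genes encode subunits of complex I, the entry of electrons from NADH. The transcripts most like ATP8 lay outside the mitochondrial genome, ENSBTAT00000055060 (r = 0.873) and ENSBTAT00000059345 (r = 0.844), and carry no name here. The r of ATP8 with ATP6 was 0.37. These correlations are descriptions of the 28 libraries and were not tested.

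The 7 mitochondrially encoded genes of complex I were set beside the members. Between 16 and 24 wk 1 of 7 was called higher and 0 lower, with log2 fold changes from 0.20 (ND5) to 0.95 (ND3, adjusted p = 0.0200, edgeR) and a median of 0.59, against 0.69 for the 6 members. The call of ND3 was lost with bull 45 at 16 wk (0.81, adjusted p = 0.145, edgeR). Between 8 and 16 wk and between 24 and 32 wk 0 of 7 were called, and 0 of 7 by diet at any age. Between 24 and 32 wk their values ran from -0.74 to -0.40. Mitochondrial rRNA1, the feature with the highest mean CPM, was at -0.05 between 16 and 24 wk and rRNA2 at 0.97 (adjusted p = 0.918 and 0.234, edgeR).

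Ratios between members within a library do not depend on library size or scaling. All 15 ratios of counts per kb were compared on the log2 scale by exact permutation tests, two-sided, of the diets within ages and of 2 ages within diets, and 0 of 75 passed after Benjamini-Hochberg adjustment (lowest adjusted p = 0.192). The closest pair was COX1 and COX3, both of complex IV, whose log2 ratio had an SD of 0.16 within groups, against 0.22 for COX3 to CYTB and 0.23 for COX1 to CYTB. Ratios with COX2 had an SD of 0.33 to 0.44, leaving out ATP8. The 5 ratios with ATP8 had an SD of 1.07 to 1.27.

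Of the tests of ages, 3 of 15 had an unadjusted p under 0.05 between 16 and 24 wk. The mean log2 ratio of ATP6 to CYTB was 0.54 at 16 wk and 0.12 at 24 wk (exact permutation p = 0.0110, adjusted p = 0.192), and that of COX1 to CYTB 2.42 and 2.15 (exact permutation p = 0.0127, adjusted p = 0.192). That of COX3 to ATP6 was 1.57 and 1.85 (exact permutation p = 0.0233, adjusted p = 0.214). Between 24 and 32 wk 6 of 15 had an unadjusted p under 0.05, of which 5 were ratios with ATP8. The log2 ratio of COX2 to ATP8 was 5.15 at 24 wk and 3.58 at 32 wk (exact permutation p = 0.00939, adjusted p = 0.192), and the other was COX3 to CYTB (1.97 and 2.19, exact permutation p = 0.0106, adjusted p = 0.192). Without high-diet bull 43 at 32 wk, the 5 ratios with ATP8 passed at this step, with adjusted p from 0.0238 to 0.0429 by exact permutation.

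For diet, averaged over ages, 1 of 15 ratios had an unadjusted p under 0.05. COX1 to CYTB was 2.47 in the high diet and 2.25 in the low diet on the log2 scale (difference 0.23, exact permutation p = 0.0136, adjusted p = 0.192). Within single ages 0 of 60 tests passed after adjustment (lowest adjusted p = 0.571), and the design allows no p below 0.0667 at 8 wk or 0.0286 at the other ages. That lowest p was reached at 16 wk by COX1 to COX3, at 0.52, 0.39 and 0.41 on the log2 scale in high-diet bulls and 0.13, 0.13, 0.10 and 0.27 in low-diet bulls, without overlap. It was reached at 24 wk by ATP8 to CYTB, at -4.50, -4.03, -4.03 and -2.96 in high-diet bulls and -4.78, -4.74, -5.26 and -4.60 in low-diet bulls, again without overlap. At 8 wk, with 2 high-diet bulls, the ratios of COX1, COX2, COX3 and ATP6 to ATP8 also had no overlap between diets (exact permutation p = 0.133 each, adjusted p = 0.571). In all other cases the diets overlapped.

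**Figure D4:**
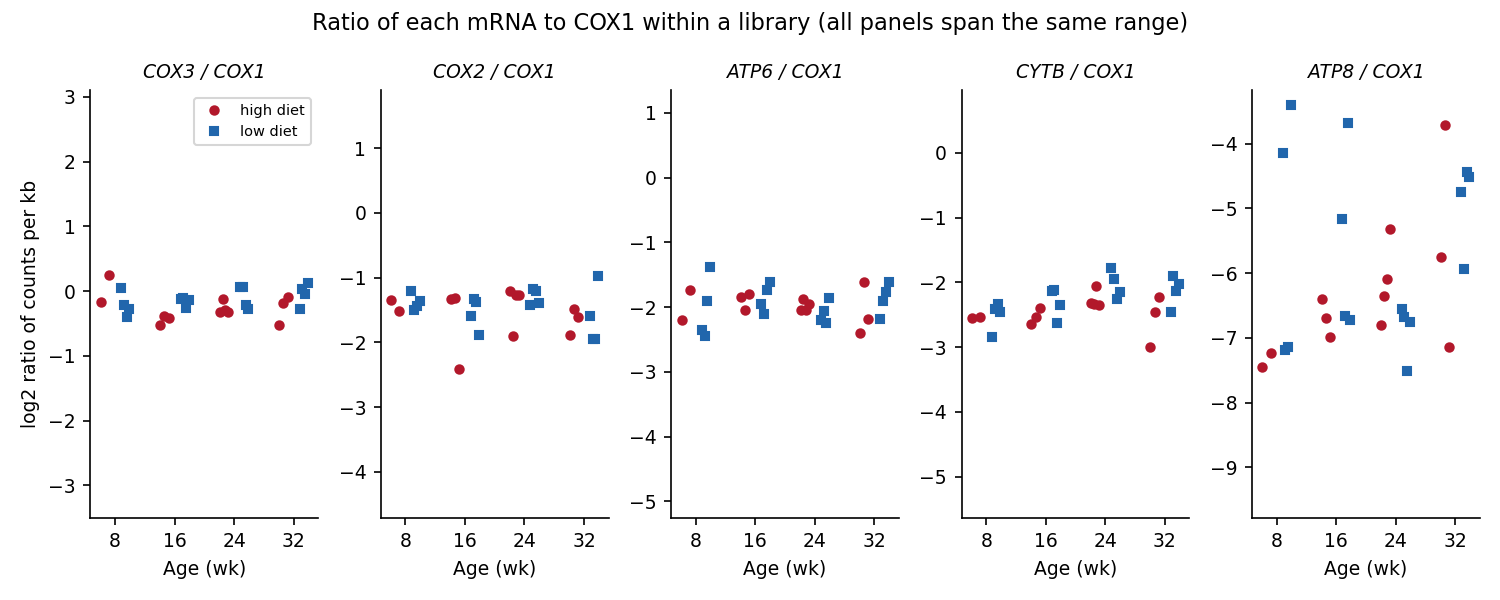
log2 ratio of each other member to COX1 within a library (y axis, counts per kb, all panels spanning the same range) by age (x axis, wk), with circles for high-diet and squares for low-diet bulls. The ratios of COX3, COX2, ATP6 and CYTB stay in narrow bands, with an SD within groups of 0.16 to 0.33, whereas that of ATP8 has an SD of 1.17.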

How the data were processed

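Testicular RNA of 28 bulls, 1 library each, was sequenced as 75-base single reads from strand-specific mRNA libraries. Alignment by the authors was to UMD3.1, by TopHat with Bowtie2. Exon reads of every Ensembl transcript (release 87) were then counted by featureCounts, version 1.5.0-p2. The deposited values are whole-number counts, neither normalized nor filtered, and the command in the file headers has no strand setting, nor one to count a read on every feature it overlaps. Later choices of 1 transcript per gene were not used here.

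The sample titles gave the groups. No bull number occurs in more than 1 group, and samples are unpaired. The 37 mitochondrial features were named because their start, end and length match the RefSeq genes of ARS-UCD2.0, whose table holds 0 Ensembl identifiers. All 6 members were named, with the 7 complex I genes as a list and the 3 transcripts most correlated with each member, of which at most 2 without a name are printed. The members and lists were chosen with earlier results of these data known.

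In R 4.3.3, edgeR 4.0.16 was used with TMM scaling. Its filter on low counts over the 8 groups left 15804 transcripts. The quasi-likelihood model, in its form without bias adjustment, held all 28 libraries with 1 coefficient per group. Age steps are the mean of the diets. Each SE is the fold change over the root of F, and the threshold was an adjusted p of 0.05. Ratios were tested by exact permutation, with all assignments listed in numpy 2.4.6 (Python 3.11.15). SciPy 1.17.1 served only to check that test. The tests were checked on simulated data.

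At library totals of 2466508 to 5378487, ATP8, with counts of 45 to 784, carries the most counting error of the members. Its counting SD of 0.125 on the log2 scale was still far below its SD of 1.197 within groups. Reads carry no molecular identifiers, and counting error is the least error a value has. Of 37 pairs of libraries within a group, none agreed within sampling noise (lowest chi-square per degree of freedom 4.59). Alternatives were other scalings, no filter, DESeq2 1.42.0, bull 45 at 16 wk, libraries of an age or diet alone and each bull left out. The bias-adjusted edgeR fit and the order of levels per start position were chosen after seeing the data.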

Additional observations from a re-analysis of the deposited data

Results flagged for a closer look

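Dixon's test at the 95% level was run on the 6 levels and 15 ratios in each group of 4 bulls. It set the highest or lowest bull apart in 8 of 105 tests, where about 5.25 would be by chance. The tests share members and bulls, so these 2 counts do not show whether the flags exceed chance. In high-diet bulls at 24 wk, bull 46 had the highest log2 ratio of COX1 to COX2 (1.91, next 1.28), the lowest of COX1 to COX3 (0.113, next 0.295) and the lowest of COX2 to COX3 (-1.79, next -0.97). In that group bull 47 had the lowest log2 ratio of COX1 to CYTB (2.06, next 2.31). In low-diet bulls at 16 wk, bull 12 had the highest log2 ratio of COX1 to COX3 (0.265, next 0.132). In low-diet bulls at 32 wk, bull 4 had the highest level of ATP6 (4927 CPM, next 2399), and bull 2 had the highest log2 ratio of COX3 to ATP8 (5.98, next 4.64) and the lowest of ATP8 to CYTB (-4.04, next -2.50).

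The 22 mitochondrial tRNA features, which no comparison used, took a mean of 0.0249% of the counts over the 28 libraries, from 0.0033% to 0.0688%.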

How the results depend on the processing

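The counts of members called by diet at each age, on average and by the interaction, and between 8 and 16 wk, were 0 in all alternatives and with each bull left out. Of the 2 members called between 16 and 24 wk, 0 were called in low-diet bulls alone (0.0127% of all transcripts called higher), 0 in high-diet bulls alone (4.36%), 0 with bull 45 at 16 wk (0.0823%), 1 (CYTB) without the filter on low counts (2.15%) and 1 (CYTB) with the bias-adjusted edgeR fit (4.87%), and DESeq2 called 4 (COX1, COX2, COX3 and CYTB; 6.59%). With each bull left out the count ran from 0 to 4. Between 24 and 32 wk it ran from 0 to 2 with each bull left out. Between 8 and 32 wk it was 1 (ATP8) without TMM, 1 (ATP8) without the filter, and 0 to 1 with each bull left out. Ratios called between ages ran from 0 to 5 with each bull left out, and 0 ratios were called under any other alternative. Signs were followed through the alternatives for 27 log2 fold changes, which left out most of those between 8 and 16 wk and between 8 and 32 wk. Among the 27, the sign turned for ATP8 between 16 and 24 wk in low-diet bulls alone (-1.02, and from -0.12 to 0.49 with each bull left out). It also turned for ATP6 between 24 and 32 wk in low-diet bulls alone (0.12), and for ATP8 by diet at 32 wk (from -1.34 to 0.28 with each bull left out). Outside the 27, signs also differed by diet. Between 8 and 16 wk, 4 of 6 members were positive on the mean of the diets, 1 of 6 in the low diet and 5 of 6 in the high diet. Between 8 and 32 wk, 6 of 6 were positive on the mean and 4 of 6 in the high diet. Apart from the loss of bulls, the cause of these differences was not tested. No paired analysis was possible because bull numbers did not recur between groups. Counting error was larger for ATP8 than for the other members, though below its spread between bulls of a group. With 2 high-diet bulls at 8 wk, diet at that age was the least precise comparison.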
